A study of Homo sapiens with 22 samples.

Results

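The integrated stress response and the unfolded protein response were followed through 35 genes of their shared module by RNA-seq in the human breast cancer cell line MDA-MB-231. The members were the rows whose gene name stood on a fixed list, out of 60669 genes in the larger tables, and each name matched 1 row. They fell into 20 genes of the amino-acid stress branch and 15 genes of the endoplasmic reticulum (ER). All 35 were found in the knockdown and DMSO tables and 33 in the CTRL table, which did not list ASNS or ALDH1L2.

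In the amino-acid stress branch, kinases that sense missing amino acids, misfolded ER protein, viral RNA or lack of haem phosphorylate the translation factor eIF2alpha. General protein synthesis then slows while the mRNA of the transcription factor ATF4 is translated better, and ATF4 switches on amino acid synthesis, amino acid import and its own brakes. ATF4 output is thus set largely by translation, which mRNA levels do not show. In the ER branch, the sensors ATF6 and IRE1 (the ERN1 gene) answer misfolded protein in the ER by activating transcription factors, ATF6 itself and spliced XBP1, which raise chaperones and the machinery of ER-associated degradation.

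The study set inhibition of BET proteins, bromodomain readers of acetylated histones, beside METTL3, the catalytic subunit of the complex that writes the m6A mark on RNA. It holds 22 libraries in 11 groups of 2, all labelled with a WT genotype. In the knockdown table, cells labelled shM3 carried lentiviral add-backs of METTL3-WT (shM3_WT) or METTL3-CD (shM3_CD), or none (shM3), and were set against cells labelled B5, all at 2 to 3 months. In the DMSO table, cells received 0.5 µM I-BET151, Molib or JQ1 for 3 days and were set against DMSO. In the CTRL table, cells labelled MW_JQ1 and cells labelled JQ1, both at 0.5 µM JQ1, were set against CTRL, all for 3 days. The labels do not spell out B5, CD, MW or Molib, and do not say whether a line was a single clone. The 2 JQ1 columns of the DMSO table could not be tied to a numbered sample and are named libraries a and b.

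Values are FPKM (fragments scaled to gene length and library total), a scale on which levels of different genes can be set side by side. Read depth is unknown, so no counting interval is given. A member was called higher or lower where limma, fitted on log2(FPKM + 1) over all genes of a table, gave a Benjamini-Hochberg adjusted p under 0.05. Log2 fold changes below are differences on that scale and understate changes of low genes. Nothing in the labels tells whether paired libraries are separate cultures, and p-values then reflect only how far these samples scatter, possibly for technical reasons alone. A value with ± is the mean and SD of the 2 libraries of a group. Counts of member calls kept with 1 library left out are given without the same share over all genes. They therefore do not set the members apart from other genes. Where libraries of called genes are said not to overlap, that describes the values and adds no support, since the genes were picked by their calls. In bulk RNA, fewer cells of a type and less RNA per cell cannot be told apart.

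METTL3 was at 4.39 and 4.80 FPKM in shM3, against 20.1 and 23.8 in B5, and between 270.5 and 312 in the add-back groups. Markers of the line were present (VIM, CD44, AXL, CAV1 and MSN), and of the 4 markers low in it ESR1, PGR and CDH1 stayed under 1 FPKM in both larger tables while EPCAM reached 10.9. Library pairs of the knockdown and DMSO tables had log2 values correlated at 0.977 to 0.987. The CTRL and JQ1 pairs of the CTRL table stood apart, at 0.746 and 0.777, with 15.5% to 28.6% of tested genes listed at 0, and their results are given with that limit. The I-BET151 libraries also went against their label in HEXIM1, a gene that BET inhibitors usually raise, which was at 10.3 and 6.37 FPKM there, at 72.9 and 69.6 with Molib and 73.8 and 76.7 with JQ1, against 26.5 and 29.4 in DMSO. In B5 replicate 2 a single gene, PIDD1, was listed at 8234197 FPKM, and member calls that changed without that library are given beside the result.

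Stretches of the members' promoters are shown because they hold the elements to which the factors of each branch are known to bind, whether the gene was called often, as CHAC1 and HYOU1 were, or seldom. ASNS, called in 3 of the 12 comparisons that tested it, and HERPUD1, called in 1 of 14, are shown for the letters alone. RefSeq promoter windows (GRCh38.p14, 250 bases before to 50 after the start) were at hand for 31 members, 16 of the amino-acid stress genes and all 15 ER genes. Searched on both strands, the C/EBP-ATF response element (CARE, TGATGNAAN), to which ATF4 binds as a dimer, matched in 3 of the 16 amino-acid stress windows (ASNS, SLC3A2 and CHAC1) and 1 of 15 ER windows (HERPUD1), and in 3.61% of all 35116 windows. The ER stress response element (ERSE, CCAAT and CCACG with 9 free bases between), bound by ATF6 with NF-Y, matched in 5 of 15 ER windows (HSPA5, HSP90B1, CALR, XBP1 and CRELD2), in none of the 16 amino-acid stress windows, and in 0.0769% of all windows. Its variant ERSE-II (ATTGG and CCACG with 1 free base between) matched in HYOU1, HERPUD1 and SDF2L1, and in 0.0541% of all. A UPRE core (TGACGTGG) overlapped the first ERSE-II match of HYOU1 and stood in 0.729% of all windows. A match is a description of letters and not a measured binding site. The runs below are written 5′ to 3′ on the strand of the gene, with the matches in capitals.
ASNS: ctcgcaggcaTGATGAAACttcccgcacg
CHAC1: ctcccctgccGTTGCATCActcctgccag
HSPA5: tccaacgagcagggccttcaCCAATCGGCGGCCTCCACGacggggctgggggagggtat
CALR: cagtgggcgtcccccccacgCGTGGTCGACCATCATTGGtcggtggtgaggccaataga
XBP1: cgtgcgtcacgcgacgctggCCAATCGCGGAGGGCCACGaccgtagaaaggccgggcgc
HERPUD1: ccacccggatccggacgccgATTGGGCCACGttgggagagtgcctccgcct
HYOU1: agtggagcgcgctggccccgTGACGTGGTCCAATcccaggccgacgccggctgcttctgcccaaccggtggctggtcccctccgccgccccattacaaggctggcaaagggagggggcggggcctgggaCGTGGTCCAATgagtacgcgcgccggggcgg

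These runs lie at chr7:97872458-97872486, minus strand, for ASNS, at chr15:40953251-40953279, plus strand, for CHAC1, and at chr9:125241371-125241429, minus strand, for HSPA5. That of CALR lies at chr19:12938364-12938422, plus strand, that of XBP1 at chr22:28800583-28800641, minus strand, that of HERPUD1 at chr16:56932005-56932055, plus strand, and that of HYOU1 at chr11:119057254-119057413, minus strand. GENCODE v29 places the ASNS and CHAC1 runs in the 5′ UTR of longer transcripts of the same genes, 8 bases of the HERPUD1 run and 15 of the XBP1 run in their 5′ UTRs, and the HSPA5, CALR and HYOU1 runs in no transcript of the gene. The CHAC1 match, the CALR match and both ERSE-II matches of HYOU1 were on the opposite strand, so those capitals read as the reverse complement of the element, while the UPRE core of HYOU1 was on the strand of the gene. The ASNS match began 68 bases before the RefSeq start, that of HSPA5 66 and that of XBP1 52.

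The loci of the members the text turns on are, in GENCODE v29 on hg38, CHAC1 (ENSG00000128965, chr15:40952962-40956519, plus strand), SESN2 (ENSG00000130766, chr1:28259527-28282491, plus strand), TRIB3 (ENSG00000101255, chr20:362835-397559, plus strand) and DDIT4 (ENSG00000168209, chr10:72273920-72276036, plus strand) of the amino-acid stress genes. Of the ER genes they are PDIA4 (ENSG00000155660, chr7:149003062-149028641, minus strand), HYOU1 (ENSG00000149428, chr11:119044189-119057202, minus strand), XBP1 (ENSG00000100219, chr22:28794555-28800597, minus strand) and DNAJB9 (ENSG00000128590, chr7:108569568-108574850, plus strand).

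Before any contrast, the members covered a wide range of levels. In B5 the lectin chaperone CALR was the highest at 857 and 886 FPKM, followed by the chaperones HSP90B1 (359.9 and 364) and HSPA5 (219 and 239) and by ATF4 itself (160.2 and 143). At the low end of B5 stood CHAC1 (2.84 and 2.97), the stress-induced regulator NUPR1 (1.70 and 2.64) and the mitochondrial folate enzyme ALDH1L2 (0.0709 and 0.00918). In DMSO the same 3 chaperones and ATF4 led again, with CALR at 718 and 753, HSP90B1 at 309 and 289, ATF4 at 279 and 222 and HSPA5 at 194 and 188 FPKM. The DMSO libraries of ATF4 overlapped those of neither HSP90B1 nor HSPA5. The low filter removed ALDH1L2 from the tests of the knockdown table and NUPR1 from those of the DMSO table, which leaves 34 members in each. PHGDH, the first enzyme of serine synthesis, was low in B5 at 7.96 and 6.32 FPKM.

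The module did not move as one in shM3. In shM3 against B5, 6 of 19 amino-acid stress genes tested were called higher and 3 lower, while of the 15 ER genes 1 was called higher and 8 lower. Over all 14638 genes tested, 37.8% were called, 17.9% higher and 19.9% lower. The amino-acid stress genes had a median log2 fold change of 0.14 and the ER genes one of -0.45, against -0.00 over all genes. Of the 18 member calls, 13 were kept whichever 1 of the 4 libraries was left out, namely 4 higher and 2 lower among the amino-acid stress genes and 7 lower among the ER genes.

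Of the effector and feedback genes, CHAC1, SESN2 and PPP1R15A were called higher in shM3, while TRIB3 and DDIT4 were not called. CHAC1, an enzyme that breaks down glutathione, was at 23.0 and 23.6 FPKM in shM3, against 2.84 and 2.97 in B5, which is 8.01-fold higher (log2 fold change 2.64, 95% interval 2.29 to 2.98, limma adjusted p = 5.1e-05). SESN2, a leucine sensor that restrains mTORC1, was at 18.5 and 16.9 in shM3, against 6.62 and 7.05 in B5 (2.59-fold higher, log2 fold change 1.26, adjusted p = 0.00016). PPP1R15A, which carries the phosphatase back to eIF2alpha and ends the response, was at 104 and 96.8 in shM3, against 59.2 and 60.4 in B5 (1.68-fold higher, log2 fold change 0.74, adjusted p = 0.00037). For these effectors both shM3 libraries stood above both B5 libraries, as they did for ATF5, a transcription factor close to ATF4, at 34.7 and 34.9 in shM3 against 13.9 and 20.8 in B5 (2.00-fold higher, adjusted p = 0.0043). DDIT3, the CHOP transcription factor, was at 29.6 and 21.1 in shM3 against 13.8 and 17.2 in B5 (1.64-fold higher, adjusted p = 0.019), and not called with B5 replicate 1 (adjusted p then 0.093) or shM3 replicate 1 (0.085) left out. SLC3A2, the heavy chain that amino acid exchangers share, was 1.56-fold higher (103 ± 2.76 in shM3 against 66.1 ± 2.53 in B5, adjusted p = 0.014), and not called with B5 replicate 1 (adjusted p then 0.063), shM3 replicate 1 (0.056) or shM3 replicate 2 (0.069) left out.

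ATF4 mRNA itself was not called. It was at 135 and 130.3 FPKM in shM3 and 160.2 and 143 in B5 (log2 fold change -0.19, 95% interval -0.39 to 0.01, limma adjusted p = 0.11). TRIB3, a pseudokinase that brakes ATF4, was at 19.4 ± 0.534 in shM3 and 17.1 ± 0.615 in B5 (log2 fold change 0.17, adjusted p = 0.14), and ASNS, asparagine synthetase, at 13.3 ± 0.0379 in shM3 and 14.7 ± 0.929 in B5 (log2 fold change -0.13, 95% interval -1.30 to 1.04). Both of the first enzymes of serine synthesis fell. PHGDH was at 2.33 and 1.83 in shM3, against 7.96 and 6.32 in B5 (3.43-fold lower, log2 fold change -1.40, adjusted p = 0.0016), and PSAT1, the next enzyme, at 17.9 and 17.2 in shM3, against 30.3 and 30.7 in B5 (1.74-fold lower, log2 fold change -0.76, adjusted p = 0.00042). For both enzymes the groups did not overlap. The third step, PSPH, was at 18.2 ± 0.114 in shM3 and 13.4 ± 0.127 in B5 and was not called (adjusted p = 0.086). NUPR1 was at 1.1 and 0.129 in shM3 against 1.70 and 2.64 in B5 (log2 fold change -1.03, adjusted p = 0.033), and not called with B5 replicate 1 (adjusted p then 0.0515), B5 replicate 2 (0.15) or shM3 replicate 2 (0.13) left out.

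Among the ER genes 6 of the 10 chaperone and folding genes and 2 of the 4 degradation genes fell. PDIA4, a protein disulfide isomerase, was at 46.6 and 49.1 FPKM in shM3, against 96.5 and 102 in B5 (2.07-fold lower, log2 fold change -1.04, 95% interval -1.21 to -0.87, limma adjusted p = 0.00011). HSP90B1, the ER form of HSP90, was at 199.9 and 199 in shM3, against 359.9 and 364 in B5 (1.81-fold lower, adjusted p = 0.00014). HYOU1, an exchange factor for HSPA5, was at 75.0 and 78.0 in shM3, against 126 and 142 in B5 (1.75-fold lower, adjusted p = 0.00043). In each of these genes both shM3 libraries lay below both B5 libraries with a wide gap. CALR was 1.82-fold lower (479 ± 22.8 in shM3 against 871 ± 20.7 in B5, adjusted p = 0.00031) and HSPA5, the BiP chaperone that holds the sensors inactive, 1.37-fold lower (167 ± 2.04 in shM3 against 229 ± 13.9 in B5, adjusted p = 0.0029). SEL1L, the scaffold of the degradation complex, was 1.65-fold lower (13.7 ± 1.03 in shM3 against 22.6 ± 2.45 in B5, adjusted p = 0.0025), and the co-chaperone DNAJC3 1.55-fold lower (4.32 ± 0.0917 in shM3 against 6.69 ± 0.125 in B5, adjusted p = 0.0077). The other degradation gene that fell, EDEM1, a lectin that sends misfolded glycoproteins to degradation, was 1.47-fold lower (12.4 ± 0.744 in shM3 against 18.2 ± 2.14 in B5, adjusted p = 0.011), and not called with B5 replicate 2 (adjusted p then 0.0508) or shM3 replicate 1 (0.065) left out. DNAJB9, a co-chaperone that represses IRE1, went up, at 13.0 and 12.5 in shM3 against 9.64 and 8.53 in B5 (1.41-fold higher, adjusted p = 0.0091), and not called with shM3 replicate 1 (adjusted p then 0.0523) left out. XBP1 was at 40.4 and 43.6 in shM3 and 56.1 and 47.8 in B5 (log2 fold change -0.30, adjusted p = 0.067), below B5 in both libraries and called lower only without B5 replicate 2 (adjusted p = 0.040). HERPUD1, a degradation factor with both a CARE and an ERSE-II match, was at 22.5 ± 1.13 in shM3 and 18.8 ± 3.84 in B5 (adjusted p = 0.40).

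**Figure D1:**
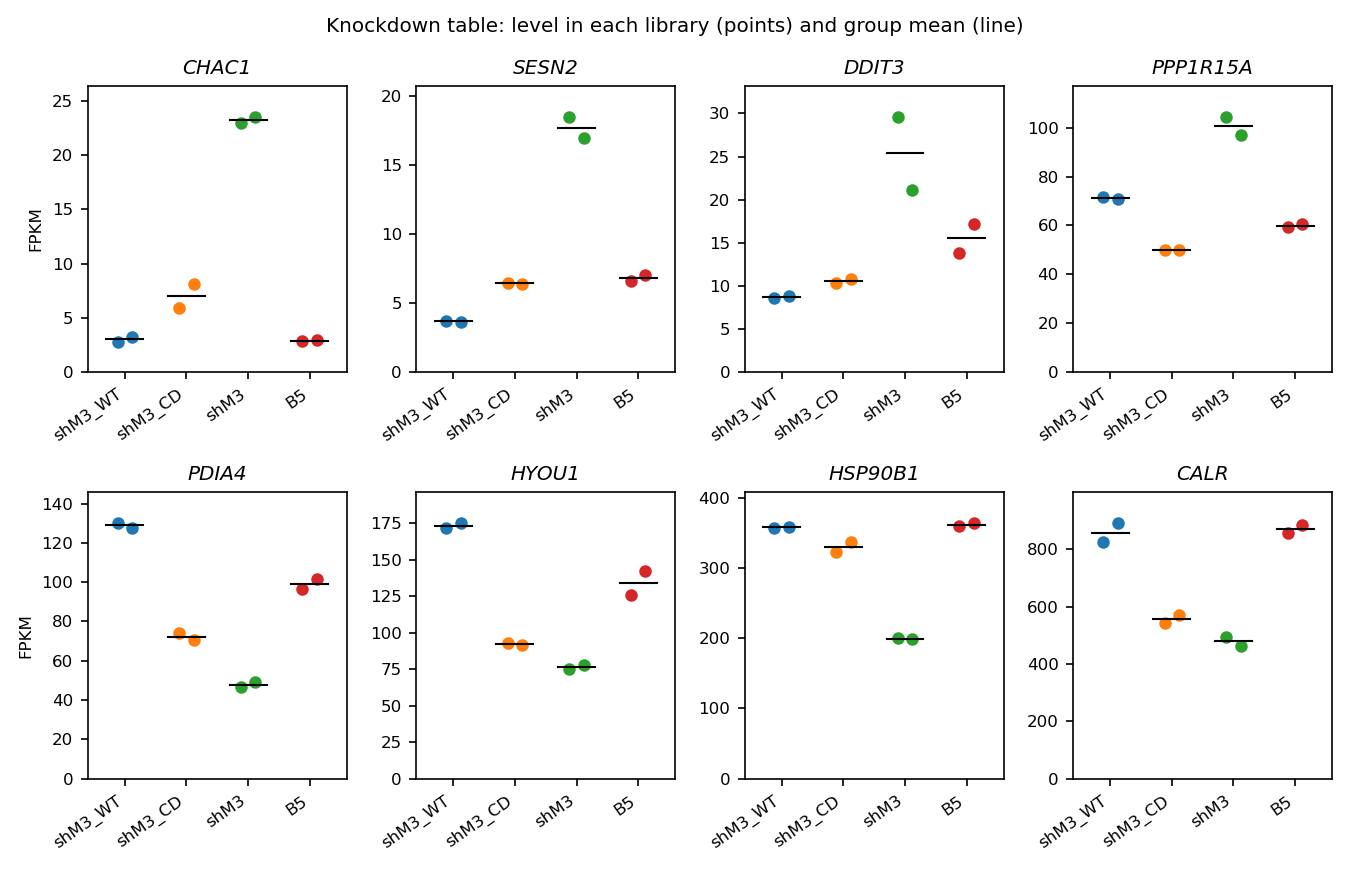
FPKM (y axis, from 0) of 8 members in the knockdown table, with shM3_WT, shM3_CD, shM3 and B5 from left to right; points are the 2 libraries of a group and the line is their mean. CHAC1 stands at 23.0 and 23.6 in shM3 against 2.84 and 2.97 in B5, and PDIA4 at 46.6 and 49.1 in shM3 against 96.5 and 102 in B5.

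The wider pathway was read from 57 further amino-acid stress genes and 56 further ER genes. Of 52 of the stress genes tested, 13 were higher and 14 lower in shM3 (median 0.05), and of 55 ER genes 10 were higher and 21 lower (median -0.20). Among 22 further genes of ER folding and glycoprotein quality control, 1 was higher and 11 lower (median -0.41), with the disulfide isomerase PDIA6 2.64-fold lower, at 75.3 ± 1.09 FPKM in shM3 against 199 ± 3.14 in B5 (adjusted p = 3.2e-05). Among 29 other ATF4 targets 5 were higher and 10 lower (median -0.02). The stress cytokine GDF15 was 4.72-fold lower, at 19.1 ± 0.169 FPKM in shM3 against 90.1 ± 3.28 in B5 (adjusted p = 1.6e-05). Of 12 cytosolic tRNA synthetases 5 were higher and 2 lower. Of the 6 ER sensors and their kin, ERN1 was higher (8.64 ± 0.580 FPKM in shM3 against 4.78 ± 0.457 in B5, adjusted p = 0.0020), and ATF6 was at 8.92 ± 0.0398 in shM3 and 9.25 ± 0.408 in B5 (adjusted p = 0.71).

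With METTL3-WT added back, the effectors of the response were lower and the ER chaperones higher than in shM3. In shM3_WT against shM3, where 39.4% of all genes were called (16.7% higher and 22.7% lower), 2 amino-acid stress genes were called higher and 7 lower, and 10 ER genes higher and 2 lower. This contrast shares the shM3 libraries with the one above, so the values are set side by side and no overlap is counted. The ER genes had a median log2 fold change of 0.35. The median of the amino-acid stress genes was -0.01, but 0.07 with TMM factors or median scaling. Of all calls of the contrast 42.5% were higher as deposited, 52.8% with TMM factors and 51.8% with median scaling. In all, 15 of the 21 member calls were kept whichever 1 of the 4 libraries was left out, and the 10 higher ER calls came to between 7 and 9.

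CHAC1 was at 2.81 and 3.27 FPKM in shM3_WT, against 23.0 and 23.6 in shM3 (7.65-fold lower, log2 fold change -2.59, 95% interval -2.93 to -2.25, limma adjusted p = 5.1e-05). SESN2 was at 3.72 and 3.62 in shM3_WT, against 18.5 and 16.9 in shM3 (4.83-fold lower, adjusted p = 3.1e-05), and DDIT3 at 8.64 and 8.87 in shM3_WT, against 29.6 and 21.1 in shM3 (2.90-fold lower, adjusted p = 0.00083). All 5 genes of the effector and feedback group fell, with TRIB3 1.54-fold lower, PPP1R15A 1.41-fold lower and DDIT4, a hypoxia- and stress-induced brake on mTORC1, 1.51-fold lower (adjusted p = 0.0018, 0.0018 and 0.00080 in that order). PSAT1 rose to 47.4 and 48.1 in shM3_WT, against 17.9 and 17.2 in shM3 (2.72-fold higher, adjusted p = 4.3e-05), and SLC7A5, the light chain that imports leucine and other large neutral amino acids, to 114 and 112 in shM3_WT, against 64.3 and 66.2 in shM3 (1.73-fold higher, adjusted p = 0.00021). PHGDH, at 3.31 and 3.15 in shM3_WT and 2.33 and 1.83 in shM3, was not called (adjusted p = 0.094). ATF4 was at 143 and 131 in shM3_WT and 135 and 130.3 in shM3 (adjusted p = 0.71). ASNS was at 14.4 and 3.32 in shM3_WT, so 1 library decided its value, and at 13.3 and 13.3 in shM3 (adjusted p = 0.23, and lower with adjusted p = 0.00093 without shM3_WT replicate 1).

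Most of the folding genes rose. PDIA4 was at 130.0 and 128 FPKM in shM3_WT, against 46.6 and 49.1 in shM3 (2.70-fold higher, log2 fold change 1.41, 95% interval 1.24 to 1.58, limma adjusted p = 3.9e-05). HYOU1 was at 172 and 175 in shM3_WT, against 75.0 and 78.0 in shM3 (2.26-fold higher, adjusted p = 9.0e-05), DNAJC3 was 2.30-fold higher (9.93 ± 0.383 in shM3_WT against 4.32 ± 0.0917 in shM3, adjusted p = 0.00045), HSP90B1 1.80-fold higher and CALR 1.79-fold higher (adjusted p = 0.00013 and 0.00031). HSPA5 changed less, at 215 and 213 in shM3_WT against 169 and 166 in shM3 (1.28-fold higher, adjusted p = 0.0072). Of the 10 chaperone and folding genes 9 rose, and the exception, DNAJB9, fell to 8.10 and 8.42 in shM3_WT, against 13.0 and 12.5 in shM3 (1.55-fold lower, adjusted p = 0.0033). Of the 9, 6 kept the call whichever 1 of the 4 libraries was left out. CRELD2, an ER protein induced by stress, was 1.29-fold higher (15.1 ± 0.647 in shM3_WT against 11.7 ± 0.520 in shM3, adjusted p = 0.023), and not called when any 1 of the 4 libraries was left out (adjusted p then 0.058 to 0.11). MANF, a secreted ER stress factor, was 1.23-fold higher (94.9 ± 7.73 in shM3_WT against 77.3 ± 1.24 in shM3, adjusted p = 0.033), and not called with shM3 replicate 1 (adjusted p then 0.13), shM3 replicate 2 (0.10) or shM3_WT replicate 2 (0.16) left out. HERPUD1 was 1.75-fold lower (adjusted p = 0.030), and not called with shM3 replicate 1 (adjusted p then 0.086), shM3 replicate 2 (0.12) or shM3_WT replicate 2 (0.15) left out. XBP1 was at 49.1 ± 4.91 in shM3_WT and 42.0 ± 2.27 in shM3 (adjusted p = 0.15). Of the further ER genes 23 of 55 were higher and 6 lower (median 0.27), with PDIA6 1.95-fold higher, at 147 ± 1.77 FPKM in shM3_WT against 75.3 ± 1.09 in shM3 (adjusted p = 8.4e-05), and of the further stress genes 15 of 52 were higher and 15 lower. Summed FPKM of 6 nuclear-retained or small structured RNAs, a reading of the RNA fraction, moved with the groups. The sum was 91.5 to 130.2 in shM3_WT, 136 to 199.8 in shM3_CD, 370.5 to 426 in shM3 and 317 to 336 in B5. RN7SL1 alone made up most of it, so the order is largely that of 1 RNA. MALAT1 and NEAT1 were also lower in shM3_WT than in shM3. The B5 libraries of MALAT1 (10.1 and 20.5) nevertheless lay on either side of its shM3 libraries (14.2 and 15.8). For NEAT1 the shM3 libraries (4.42 and 9.76) enclosed those of shM3_CD (5.23 and 6.16). The part of the RNA fraction in these results was not tested. ATF5 was 1.62-fold lower (adjusted p = 0.018), and not called with shM3 replicate 1 (adjusted p then 0.072), shM3 replicate 2 (0.074) or shM3_WT replicate 1 (0.094) left out. SDF2L1, a chaperone partner of the ER lumen, was 1.68-fold higher (adjusted p = 0.015), and not called with shM3 replicate 1 (adjusted p then 0.063) or shM3_WT replicate 2 (0.083) left out.

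The CD add-back reached part of the module. In shM3_CD against shM3, 11.4% of all genes were called (6.82% higher and 4.59% lower). Of the members, 5 amino-acid stress genes were called higher and 5 lower, and 3 ER genes higher and none lower. The 13 calls fell to 8 without shM3 replicate 1, shM3 replicate 2 or shM3_CD replicate 2 and to 7 without shM3_CD replicate 1, and 7 were kept throughout, those of CHAC1, SESN2, PPP1R15A, DDIT4, PSAT1, HSP90B1 and PDIA4.

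CHAC1 was at 5.95 and 8.12 FPKM in shM3_CD, against 23.0 and 23.6 in shM3 (3.31-fold lower, log2 fold change -1.61, adjusted p = 0.0013). SESN2 was at 6.46 and 6.39 in shM3_CD, against 18.5 and 16.9 in shM3 (2.76-fold lower, adjusted p = 0.00065), and PPP1R15A at 49.7 and 49.7 in shM3_CD, against 104 and 96.8 in shM3 (2.02-fold lower, adjusted p = 0.00060). In each, both shM3_CD libraries lay below both shM3 libraries. DDIT3 was 2.40-fold lower (10.6 ± 0.301 in shM3_CD against 25.4 ± 6.0 in shM3, adjusted p = 0.0073), and not called with shM3_CD replicate 1 (adjusted p then 0.0518) left out. TRIB3 was 1.36-fold lower (adjusted p = 0.022), and not called when any 1 of the 4 libraries was left out (adjusted p then 0.088 to 0.12). HSP90B1 rose to 323 and 336 in shM3_CD, against 199.9 and 199 in shM3 (1.65-fold higher, adjusted p = 0.0012), and PDIA4 to 74.3 and 70.3 in shM3_CD, against 46.6 and 49.1 in shM3 (1.51-fold higher, adjusted p = 0.0040). HSPA5 was at 169 and 164 in shM3_CD, next to 169 and 166 in shM3 (95% interval -0.17 to 0.16 of the log2 difference), and XBP1, HERPUD1 and ASNS were not called (adjusted p = 0.87, 0.37 and 0.63). ATF4 was at 174 and 172 in shM3_CD, against 135 and 130.3 in shM3 (1.31-fold higher, adjusted p = 0.029), and not called when any 1 of the 4 libraries was left out (adjusted p then 0.11 to 0.14). CEBPB was 1.41-fold higher (adjusted p = 0.0452), and not called when any 1 of the 4 libraries was left out (adjusted p then 0.15 to 0.17). SLC7A5 was 1.27-fold higher (adjusted p = 0.021), and not called when any 1 of the 4 libraries was left out (adjusted p then 0.089 to 0.12). SEL1L was 1.37-fold higher (adjusted p = 0.042), and not called when any 1 of the 4 libraries was left out (adjusted p then 0.095 to 0.19).

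DDIT4 stood out in shM3_CD. It was at 143 and 143 FPKM there, at 49.6 and 50.0 in shM3_WT, at 76.3 and 73.6 in shM3 and at 71.5 and 76.2 in B5. It was 1.90-fold higher than in shM3 (adjusted p = 0.00072) and 1.93-fold higher than in B5 (adjusted p = 0.00027), while shM3_WT was 1.48-fold lower than B5 (adjusted p = 0.0016). The shM3 and B5 values of DDIT4 overlapped (adjusted p = 0.82).

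**Figure D2:**
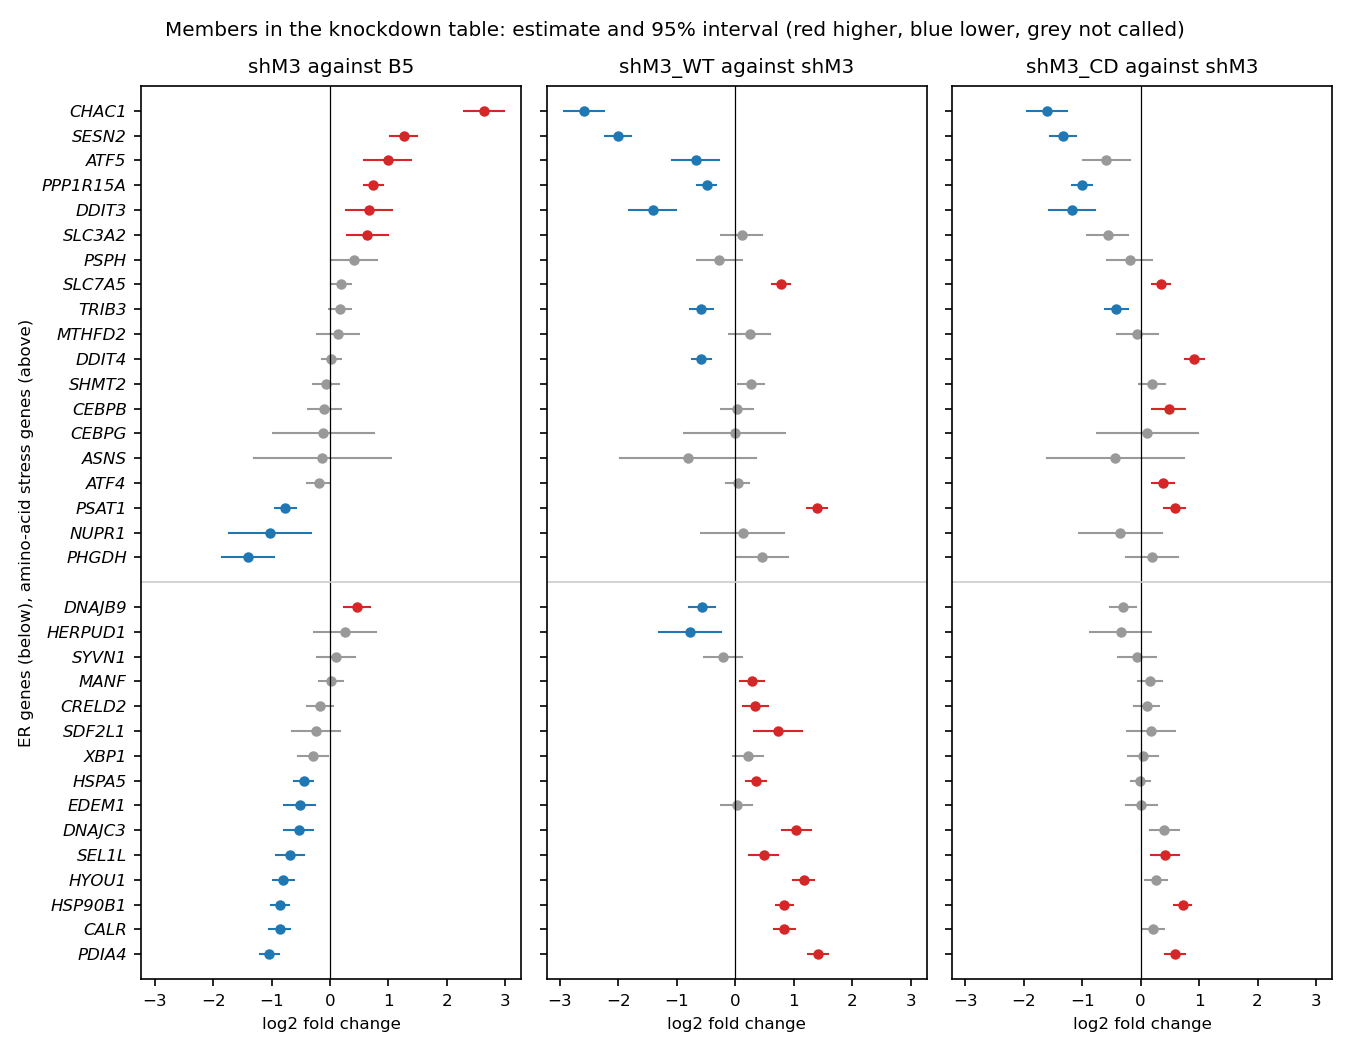
Log2 fold change (x axis, same scale in each panel) with its 95% interval for the 34 members tested in the knockdown table, for shM3 against B5, shM3_WT against shM3 and shM3_CD against shM3. Red points were called higher, blue lower and grey not called; amino-acid stress genes stand above the grey rule and ER genes below it. CHAC1 lies at 2.64, -2.59 and -1.61 in the 3 panels, and PDIA4 at -1.04, 1.41 and 0.59.

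Compared with each other, shM3_WT and shM3_CD differed in 14 of the 34 members (25.9% of all genes were called, 10.2% higher and 15.7% lower in shM3_WT). In shM3_WT 4 amino-acid stress genes were higher and 5 lower, and 5 ER genes were higher and none lower. DDIT4 was 2.87-fold lower in shM3_WT (log2 fold change -1.50, adjusted p = 0.00012), CHAC1 2.31-fold lower (adjusted p = 0.0043) and SESN2 1.75-fold lower (adjusted p = 0.0038). PPP1R15A went the other way, 1.43-fold higher in shM3_WT (71.3 ± 0.561 in shM3_WT against 49.7 ± 0.00820 in shM3_CD, adjusted p = 0.0033). HYOU1 was 1.88-fold higher (173 ± 2.44 in shM3_WT against 92.1 ± 0.775 in shM3_CD, adjusted p = 0.00088), PDIA4 1.78-fold higher, PSAT1 1.79-fold higher and CALR 1.54-fold higher. These 8 were among 10 calls kept whichever 1 of the 4 libraries was left out. HSPA5 was 1.29-fold higher (214 ± 1.64 in shM3_WT against 166 ± 3.55 in shM3_CD, adjusted p = 0.011), and not called when any 1 of the 4 libraries was left out (adjusted p then 0.0522 to 0.071). ASNS was not called (adjusted p = 0.61), but was lower without shM3_WT replicate 1 (adjusted p = 0.0070) and higher without shM3_WT replicate 2 (0.036). ATF4 was 1.27-fold lower in shM3_WT (adjusted p = 0.025), and not called with shM3_WT replicate 2 (adjusted p then 0.12), shM3_CD replicate 1 (0.11) or shM3_CD replicate 2 (0.097) left out. DDIT3, TRIB3, XBP1 and HERPUD1 were not called (adjusted p = 0.32, 0.18, 0.26 and 0.19). The median of the amino-acid stress genes was -0.09 as deposited, 0.02 with TMM factors and 0.02 with median scaling, and 39.5%, 56.8% and 57.3% of all calls were higher under those scalings. DNAJC3 was 1.64-fold higher (adjusted p = 0.0064), kept whichever library was left out. SLC3A2 was 1.62-fold higher (adjusted p = 0.018), and not called with shM3_CD replicate 1 (adjusted p then 0.090) or shM3_CD replicate 2 (0.062) left out. CEBPB was 1.38-fold lower (adjusted p = 0.031), and not called when any 1 of the 4 libraries was left out (adjusted p then 0.0537 to 0.15).

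Neither add-back group matched B5 throughout. In shM3_WT against B5 (30% of all genes called, 11.8% higher and 18.2% lower), 4 amino-acid stress genes were higher and 5 lower, and 4 ER genes higher and 1 lower. The 14 calls fell to 7 without shM3_WT replicate 2, and 6 were kept throughout. SLC7A5 was 1.99-fold higher (114 and 112 in shM3_WT against 55.4 and 58.3 in B5, adjusted p = 0.00020), PSAT1 1.57-fold higher, SLC3A2 1.72-fold higher and PDIA4 1.30-fold higher, and SESN2 was 1.86-fold lower (adjusted p = 0.0019). CHAC1 was back at its B5 level, with a log2 difference of 0.05 (95% interval -0.29 to 0.39), and HSP90B1 and CALR differed from B5 by -0.02 and -0.02. The ER median was -0.02, and 0.09 with TMM factors and 0.10 with median scaling, that of the amino-acid stress genes -0.07, 0.04 and 0.05, and 39.4%, 54.3% and 56.5% of all calls were higher. In shM3_WT against B5, DDIT4 was 1.48-fold lower (adjusted p = 0.0016), kept whichever library was left out. DDIT3 was 1.77-fold lower (adjusted p = 0.015), and not called with B5 replicate 2 (adjusted p then 0.080), shM3_WT replicate 1 (0.069) or shM3_WT replicate 2 (0.063) left out. TRIB3 was 1.36-fold lower (adjusted p = 0.010), and not called with shM3_WT replicate 2 (adjusted p then 0.060) left out. PHGDH was 2.21-fold lower (adjusted p = 0.010), and not called with B5 replicate 1 (adjusted p then 0.0512) or shM3_WT replicate 2 (0.0551) left out. DNAJC3 was 1.48-fold higher (adjusted p = 0.012), and not called with shM3_WT replicate 1 (adjusted p then 0.066) left out. EDEM1 was 1.44-fold lower (adjusted p = 0.017), and not called with B5 replicate 2 (adjusted p then 0.077), shM3_WT replicate 1 (0.085) or shM3_WT replicate 2 (0.0532) left out. HYOU1 was 1.29-fold higher (adjusted p = 0.012), and not called with shM3_WT replicate 2 (adjusted p then 0.061) left out. MANF was 1.24-fold higher (adjusted p = 0.035), and not called with B5 replicate 1 (adjusted p then 0.096), B5 replicate 2 (0.082) or shM3_WT replicate 2 (0.16) left out. PPP1R15A was 1.19-fold higher (adjusted p = 0.035), and not called when any 1 of the 4 libraries was left out, B5 replicate 2 among them (adjusted p then 0.071 to 0.12). ATF4, ASNS, XBP1, HSPA5 and HERPUD1 were not called (log2 fold change between -0.94 and -0.08, adjusted p between 0.12 and 0.62), and ASNS was lower without shM3_WT replicate 1 (log2 fold change -1.86, adjusted p = 0.0012).

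In shM3_CD against B5 (29.9% called, 14.8% higher and 15.2% lower), 4 amino-acid stress genes were higher and 3 lower, and no ER gene was higher and 5 lower. CHAC1 remained 2.42-fold higher (7.04 ± 1.54 in shM3_CD against 2.90 ± 0.0938 in B5, adjusted p = 0.0029). CALR was 1.57-fold lower (556 ± 20.6 in shM3_CD against 871 ± 20.7 in B5), HYOU1 1.45-fold lower, HSPA5 1.38-fold lower and PDIA4 1.37-fold lower (adjusted p between 0.0015 and 0.0044). PHGDH stayed below B5 in both add-back groups, at 3.31 and 3.15 in shM3_WT and 3.14 and 2.00 in shM3_CD against 7.96 and 6.32 in B5 (adjusted p = 0.010 and 0.0042). The first of these calls was lost without B5 replicate 1 (adjusted p = 0.051) or shM3_WT replicate 2 (0.055). In shM3_CD against B5, DDIT4 was 1.93-fold higher and SLC7A5 was 1.46-fold higher (adjusted p = 0.00027 and 0.0017), kept whichever library was left out. NUPR1 was lower, at 0.194 and 0.228 FPKM in shM3_CD against 1.70 and 2.64 in B5 (adjusted p = 0.014), and not called with B5 replicate 2 (adjusted p then 0.078), shM3_CD replicate 1 (0.065) or shM3_CD replicate 2 (0.061) left out. CEBPB was 1.30-fold higher (adjusted p = 0.0477), and not called with B5 replicate 2 (adjusted p then 0.17), shM3_CD replicate 1 (0.16) or shM3_CD replicate 2 (0.14) left out. PPP1R15A was 1.2-fold lower (adjusted p = 0.029), and not called when any 1 of the 4 libraries was left out (adjusted p then 0.057 to 0.11). EDEM1 was 1.46-fold lower (adjusted p = 0.015), and not called with B5 replicate 2 (adjusted p then 0.067) or shM3_CD replicate 1 (0.086) left out. ATF4, DDIT3, TRIB3, ASNS, XBP1 and HERPUD1 were not called (log2 fold change between -0.56 and 0.19, adjusted p between 0.060 and 0.81).

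With JQ1 and with Molib the brake TRIB3, the folate enzyme SHMT2 and the ER regulator XBP1 were lower than in DMSO. In JQ1 against DMSO, where 35.1% of all genes were called (14.5% higher and 20.6% lower), 2 amino-acid stress genes were higher and 5 lower, and 2 ER genes higher and 1 lower, a share of 29.4% of the 34 members. In Molib against DMSO, with 35.3% of all genes called (14.8% higher and 20.5% lower), 4 amino-acid stress genes were higher and 4 lower, and 1 ER gene higher and 1 lower. Calls kept whichever 1 of the 4 libraries was left out were those of TRIB3, SHMT2, XBP1 and SEL1L for JQ1 and of TRIB3, SHMT2 and XBP1 for Molib. The 10 calls of JQ1 fell to 4 without DMSO replicate 1 or JQ1 library b and to 6 without DMSO replicate 2. The 10 of Molib fell to 4 without DMSO replicate 1, 5 without DMSO replicate 2, 6 without Molib replicate 1 and 5 without Molib replicate 2.

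TRIB3 was at 4.10 and 5.62 FPKM with Molib and 5.16 and 4.47 with JQ1, against 13.4 and 15.0 in DMSO. It was 2.92-fold lower with Molib (log2 fold change -1.39, 95% interval -1.79 to -0.98, limma adjusted p = 0.0012) and 2.95-fold lower with JQ1 (log2 fold change -1.39, 95% interval -1.79 to -0.98, limma adjusted p = 0.0013). XBP1, the transcription factor that IRE1 splices, was at 22.9 and 26.4 with Molib and 26.6 and 23.4 with JQ1, against 54.1 and 62.5 in DMSO (2.36-fold lower with adjusted p = 0.00054, and 2.33-fold lower with 0.00061). For both genes the treated libraries lay below the DMSO libraries by a gap wider than either group's spread. SHMT2, the mitochondrial enzyme that takes a carbon from serine, was at 64.6 and 71.0 with Molib and 60.3 and 67.9 with JQ1, against 100.1 and 110.1 in DMSO (adjusted p = 0.0045 and 0.0029). SEL1L was at 32.2 and 29.0 with JQ1, against 17.5 and 13.4 in DMSO (1.99-fold higher, adjusted p = 0.0051). With Molib it was at 22.1 and 29.1 (1.66-fold higher, adjusted p = 0.018), and not called with DMSO replicate 2 (adjusted p then 0.11) or Molib replicate 2 (0.10) left out.

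Of the 10 chaperone and folding genes none was called lower with either compound, none higher with Molib and 1 higher with JQ1. HSPA5 was at 221 and 219.9 FPKM with Molib and 217 and 218 with JQ1, against 194 and 188 in DMSO (log2 fold change 0.21 and 0.19, adjusted p = 0.13 and 0.16). With the I-BET151 libraries left out of the fit HSPA5 was called higher with both (adjusted p = 0.023 for Molib and 0.030 for JQ1), and for Molib also with its 2 groups fitted alone (0.046). Up to 4 ER genes were then called higher with each compound. PDIA4 was at 129 and 128 with Molib and 126 and 120.2 with JQ1, next to 131 and 121 in DMSO. DNAJB9 was at 5.29 and 4.91 with Molib and 5.22 and 6.01 with JQ1, against 6.64 and 6.61 in DMSO, without a call (adjusted p = 0.063 and 0.20). HERPUD1 was at 15.5 and 29.2 with Molib and 21.6 and 16.5 with JQ1, and at 17.3 and 15.4 in DMSO (adjusted p = 0.37 and 0.64). HSP90B1 was 1.49-fold higher with JQ1 (444 ± 33.0 with JQ1 against 299 ± 14.7 in DMSO, adjusted p = 0.016), and not called when any 1 of the 4 libraries was left out (adjusted p then 0.0501 to 0.098). The ER medians were 0.12 for Molib and 0.02 for JQ1, against -0.03 and -0.04 over all genes.

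ATF4 itself was at 257 and 259.7 FPKM with Molib and 292 and 275 with JQ1, against 279 and 222 in DMSO (adjusted p = 0.84 and 0.42). CHAC1 was at 2.64 and 2.87 with Molib and 1.71 and 3.03 with JQ1, and at 1.79 and 2.21 in DMSO (adjusted p = 0.26 and 0.63). CEBPB, a partner of ATF4, was at 36.1 and 34.0 with Molib and 35.8 and 38.0 with JQ1, against 57.4 and 58.1 in DMSO, called lower with both. For JQ1 its adjusted p was 0.023, and not called when any 1 of the 4 libraries was left out (adjusted p then 0.075 to 0.11), and for Molib 0.015, and not called when any 1 of the 4 libraries was left out (adjusted p then 0.054 to 0.076). ASNS was at 47.8 and 40.5 with Molib and 28.7 and 38.1 with JQ1, against 6.66 and 25.3 in DMSO, with the DMSO libraries far apart. It was called for Molib (adjusted p = 0.044), and not called with DMSO replicate 1 (adjusted p then 0.15), Molib replicate 1 (0.16) or Molib replicate 2 (0.11) left out, and not for JQ1 (adjusted p = 0.10, and 0.010 without DMSO replicate 2). DDIT3 was called higher with Molib (9.52 ± 1.65 with Molib against 5.87 ± 1.18 in DMSO, adjusted p = 0.0458), and not called when any 1 of the 4 libraries was left out (adjusted p then 0.059 to 0.22), and not with JQ1 (9.25 ± 0.713, adjusted p = 0.0542), where TMM factors, median scaling, the 2 groups fitted alone and a fit without the I-BET151 libraries called it higher (adjusted p then 0.035 to 0.046). DDIT4 was 1.75-fold higher with JQ1 (188 ± 7.14 with JQ1 against 107 ± 7.35 in DMSO, adjusted p = 0.0085), and not called with DMSO replicate 1 (adjusted p then 0.057) or JQ1 library b (0.0525) left out. With JQ1, CEBPG, a dimer partner of ATF4, was 1.78-fold lower (adjusted p = 0.037), and not called with DMSO replicate 1 (adjusted p then 0.16), DMSO replicate 2 (0.087) or JQ1 library b (0.16) left out. ATF5 was 1.47-fold lower (adjusted p = 0.033), and not called when any 1 of the 4 libraries was left out (adjusted p then 0.094 to 0.14). SESN2 was 1.45-fold higher (adjusted p = 0.026), and not called with DMSO replicate 1 (adjusted p then 0.096), DMSO replicate 2 (0.11) or JQ1 library b (0.15) left out. With Molib, ATF5 was 1.76-fold lower (adjusted p = 0.0077), and not called with DMSO replicate 1 (adjusted p then 0.0508) left out. PPP1R15A was 1.62-fold higher (adjusted p = 0.016), and not called when any 1 of the 4 libraries was left out (adjusted p then 0.066 to 0.078). SESN2 was 1.54-fold higher (adjusted p = 0.014), and not called with DMSO replicate 1 (adjusted p then 0.064), DMSO replicate 2 (0.070) or Molib replicate 1 (0.088) left out.

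Beyond the members, 31 other ATF4 targets were tested in the DMSO table. With JQ1 4 of them were higher and 17 lower (median -0.45), and with Molib 4 were higher and 15 lower (median -0.33). The arginine transporter SLC7A1 was 2.08-fold lower, at 12.3 ± 0.279 FPKM with JQ1 against 25.6 ± 1.4 in DMSO (adjusted p = 0.00041) and the glycine transporter SLC6A9 2.28-fold lower, at 6.34 ± 0.961 FPKM with JQ1 against 14.5 ± 0.380 in DMSO (adjusted p = 0.0012), while SLC38A2, a glutamine carrier, was 1.81-fold higher, at 109 ± 1.13 FPKM with JQ1 against 60.5 ± 1.81 in DMSO (adjusted p = 0.0012). SLC7A1 was 2.16-fold lower, at 11.9 ± 0.144 FPKM with Molib against 25.6 ± 1.4 in DMSO (adjusted p = 0.00034) and SLC6A9 2.80-fold lower, at 5.17 ± 0.252 FPKM with Molib against 14.5 ± 0.380 in DMSO (adjusted p = 0.00046). Of 22 further ER folding genes, 1 was higher and 1 lower with JQ1, and 1 higher and none lower with Molib.

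Molib and JQ1, at the same dose and time, were not told apart in any member. Limma called 0 of 14936 genes between them, with 1227 genes and 3 members (SLC3A2, DDIT4 and PSPH) at an unadjusted p under 0.05, and the lowest adjusted p of a member was 0.45. The intervals set how far this reaches. For TRIB3 the log2 difference of Molib minus JQ1 was 0.00 (95% interval -0.41 to 0.41), for XBP1 -0.02 (95% interval -0.31 to 0.27), for HSPA5 0.02 (95% interval -0.20 to 0.24) and for SLC3A2 -0.61 (95% interval -0.90 to -0.32). The median half-width of these intervals over the 34 members was 0.34, before any adjustment over genes. SLC3A2, whose difference was larger than that, was not called either, so differences above 0.34 could also be missed. ATF4, DDIT3, CHAC1, ASNS and HERPUD1 were not called (log2 fold change between -0.13 and 0.40, adjusted p between 0.84 and 0.98).

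**Figure D3:**
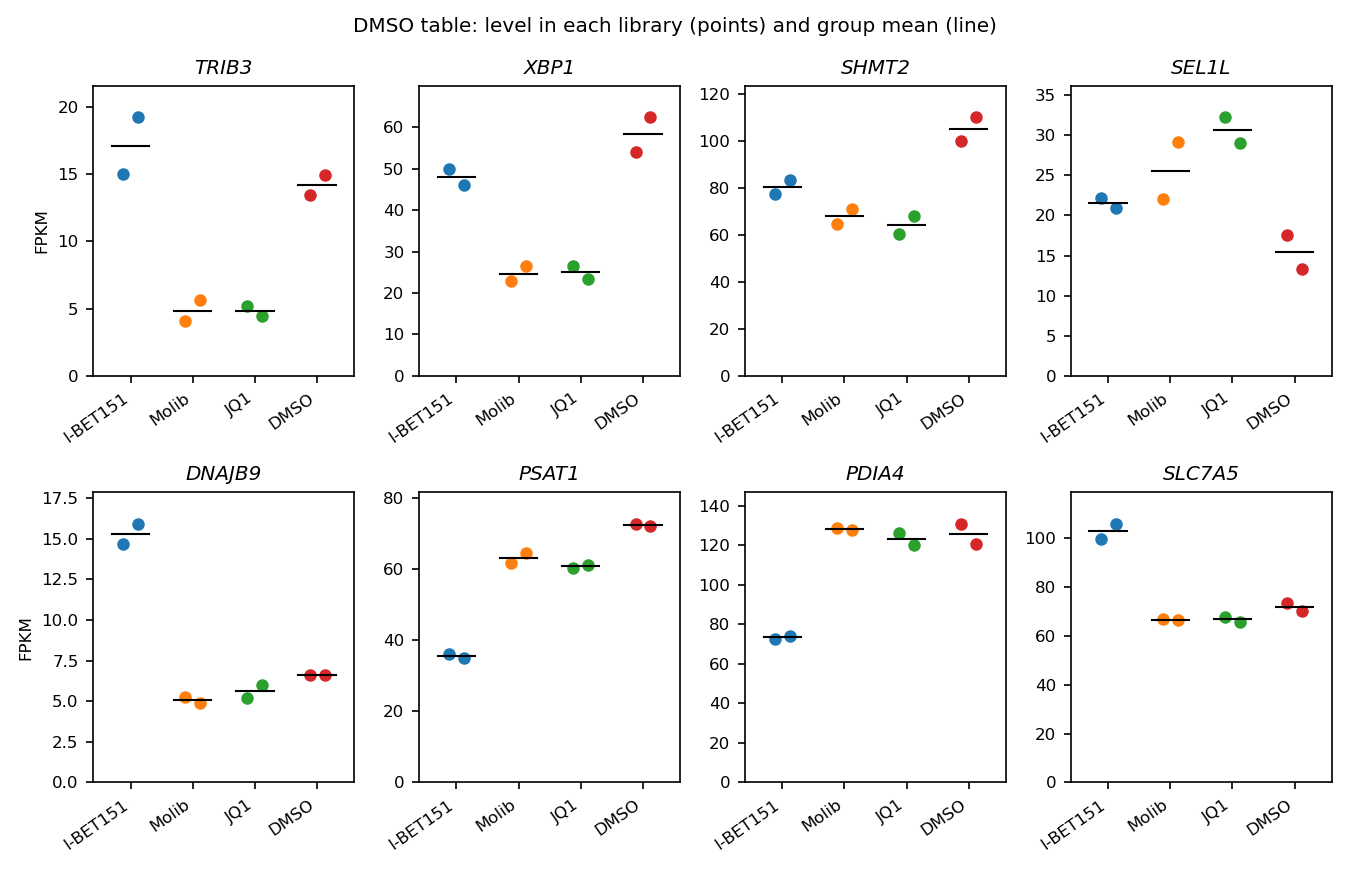
FPKM (y axis, from 0) of 8 members in the DMSO table, with I-BET151, Molib, JQ1 and DMSO from left to right; points are the 2 libraries of a group and the line is their mean. TRIB3 and XBP1 are low in the Molib and JQ1 libraries, while DNAJB9 stands at 14.7 and 15.9 in the I-BET151 libraries against 6.64 and 6.61 in DMSO.

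In the libraries labelled I-BET151 the serine enzyme PSAT1, the isomerase PDIA4 and the degradation lectin EDEM1 were lower than in DMSO, and the co-chaperone DNAJB9 and the transporter SLC7A5 higher. In I-BET151 against DMSO (28% of all genes called, 13.9% higher and 14.1% lower), 4 amino-acid stress genes were higher and 7 lower, and 1 ER gene was higher and 4 lower. The 16 calls fell to 5 without DMSO replicate 1 and 6 without DMSO replicate 2, and to 8 with no filter or with the 2 groups fitted alone. The 5 kept whichever library was left out were PSAT1, SLC7A5, DNAJB9, PDIA4 and EDEM1. HEXIM1, given above, sets these libraries apart from the other compounds, and its part in what follows was not tested.

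PSAT1 was at 36.1 and 35.1 FPKM in the I-BET151 libraries, against 72.8 and 72.2 in DMSO (2.04-fold lower, log2 fold change -1.01, 95% interval -1.20 to -0.81, limma adjusted p = 0.00040). PDIA4 was at 72.4 and 74.3 in the I-BET151 libraries, against 131 and 121 in DMSO (1.72-fold lower, adjusted p = 0.0012), and EDEM1 at 6.82 and 6.61 there, against 13.0 and 11.3 in DMSO (1.81-fold lower, adjusted p = 0.0031). DNAJB9 was at 14.7 and 15.9 in the I-BET151 libraries, against 6.64 and 6.61 in DMSO (2.31-fold higher, adjusted p = 0.00086), and SLC7A5 at 99.8 and 106 there, against 73.7 and 70.2 in DMSO (1.43-fold higher, adjusted p = 0.0058). In these 5 genes, picked by their calls, the groups did not overlap, which adds no support. PHGDH was at 12.6 and 12.8 in the I-BET151 libraries against 42.1 and 32.7 in DMSO (adjusted p = 0.014), and not called with DMSO replicate 1 (adjusted p then 0.086) or I-BET151 replicate 2 (0.0538) left out. CHAC1 was at 4.75 and 3.79 in the I-BET151 libraries against 1.79 and 2.21 in DMSO (adjusted p = 0.026), and not called with DMSO replicate 1 (adjusted p then 0.13), DMSO replicate 2 (0.074) or I-BET151 replicate 1 (0.097) left out. ATF4 was at 198 and 143 in the I-BET151 libraries against 279 and 222 in DMSO (adjusted p = 0.045), and not called with DMSO replicate 1 (adjusted p then 0.22), DMSO replicate 2 (0.060) or I-BET151 replicate 2 (0.13) left out. TRIB3, DDIT3, ASNS, XBP1, HSPA5 and HERPUD1 were not called (adjusted p between 0.080 and 0.83), and HSPA5 was higher without I-BET151 replicate 1 (log2 fold change 0.36, adjusted p = 0.011). Among the further ER genes ERN1 was 2.24-fold higher, at 15.3 ± 1.37 FPKM in the I-BET151 libraries against 6.86 ± 0.321 in DMSO (adjusted p = 0.00082) and the translocon subunit SEC61B 5.62-fold lower, at 37.0 ± 5.90 FPKM in the I-BET151 libraries against 208 ± 21.5 in DMSO (adjusted p = 7.2e-05). ATF5 was 1.70-fold lower (adjusted p = 0.012), and not called with DMSO replicate 1 (adjusted p then 0.073) or DMSO replicate 2 (0.0524) left out. PPP1R15A was 1.56-fold higher (adjusted p = 0.030), and not called with DMSO replicate 1 (adjusted p then 0.11) or DMSO replicate 2 (0.12) left out. ALDH1L2 was 3.96-fold lower (adjusted p = 0.0479), with a log2 fold change of only -0.56 because its levels were low beside the added 1 FPKM. It was not called with a pseudocount of 5 (limma adjusted p = 0.085). Nor was it called when any 1 of the 4 libraries was left out (log2 fold change then -0.61 to -0.50). CRELD2 was 1.47-fold lower (adjusted p = 0.036), and not called with DMSO replicate 1 (adjusted p then 0.16), DMSO replicate 2 (0.10) or I-BET151 replicate 2 (0.097) left out. CALR was 1.25-fold lower (adjusted p = 0.037), and not called with DMSO replicate 1 (adjusted p then 0.11) or DMSO replicate 2 (0.18) left out.

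Tested directly at the same dose and time, the I-BET151 libraries differed from JQ1 in 19 members (44.6% of all genes, 24.6% higher and 20.1% lower) and from Molib in 17 (43.5%, 23.6% higher and 19.9% lower). Against JQ1, 5 amino-acid stress genes were higher and 7 lower, and 2 ER genes higher and 5 lower. Against Molib, 3 amino-acid stress genes were higher and 7 lower, and 2 ER genes higher and 5 lower. TRIB3 was 3.55-fold higher than with JQ1 and 3.52-fold higher than with Molib (adjusted p = 0.00039 and 0.00040), DNAJB9 2.73-fold higher and 3.01-fold higher than with JQ1 and Molib (adjusted p = 0.00018 and 0.00012), CEBPB 2.21-fold higher and 2.32-fold higher, and XBP1 1.91-fold higher and 1.94-fold higher (adjusted p = 0.0011 and 0.0011). In the same order, PSAT1 was 1.71-fold lower and 1.78-fold lower, PDIA4 1.68-fold lower and 1.75-fold lower, EDEM1 1.75-fold lower and 1.72-fold lower, and PHGDH 3.44-fold lower and 3.73-fold lower. All 8 genes kept their calls in both contrasts whichever 1 of the libraries compared was left out. The 3 pairs of compounds were adjusted over genes within each pair, not over the pairs. These 3 contrasts and those with DMSO share libraries, so they are set side by side only.

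Of the other members of the I-BET151 contrast with JQ1, DDIT4 was 2.16-fold lower, SLC3A2 was 1.58-fold lower and HSP90B1 was 1.57-fold lower (adjusted p = 0.0014, 0.0049 and 0.0066), kept whichever library was left out. ATF4 was 1.66-fold lower (adjusted p = 0.0099), and not called with JQ1 library a (adjusted p then 0.058) left out. CHAC1 was 1.80-fold higher (adjusted p = 0.034), and not called with JQ1 library a (adjusted p then 0.18) or I-BET151 replicate 1 (0.14) left out. ASNS was 3.14-fold lower (adjusted p = 0.042), and not called when any 1 of the 4 libraries was left out (adjusted p then 0.0553 to 0.19). ALDH1L2 was 5.56-fold lower from low levels (adjusted p = 0.0089), and not called with JQ1 library a left out (log2 fold change then -0.60). DNAJC3 was 1.35-fold lower (adjusted p = 0.0481), and not called with JQ1 library a (adjusted p then 0.12), JQ1 library b (0.18) or I-BET151 replicate 1 (0.16) left out. CALR was 1.27-fold lower (adjusted p = 0.021), and not called with JQ1 library a (adjusted p then 0.093) or JQ1 library b (0.11) left out. DDIT3, HSPA5 and HERPUD1 were not called (log2 fold change between -0.46 and 0.07, adjusted p between 0.097 and 0.57), and DDIT3 was lower without I-BET151 replicate 1 (adjusted p = 0.043).

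Of the other members of the I-BET151 contrast with Molib, ALDH1L2 was 6.26-fold lower, SLC7A5 was 1.54-fold higher and CRELD2 was 1.65-fold lower (adjusted p = 0.0055, 0.0013 and 0.0085), kept whichever library was left out. The ALDH1L2 fold again came from low levels. ATF4 was 1.51-fold lower (adjusted p = 0.022), and not called with Molib replicate 1 (adjusted p then 0.082), Molib replicate 2 (0.088) or I-BET151 replicate 2 (0.069) left out. ASNS was 4.16-fold lower (adjusted p = 0.018), and not called with Molib replicate 1 (adjusted p then 0.081), Molib replicate 2 (0.059) or I-BET151 replicate 2 (0.10) left out. DDIT4 was 1.51-fold lower (adjusted p = 0.019), and not called with Molib replicate 1 (adjusted p then 0.086) or Molib replicate 2 (0.065) left out. CALR was 1.36-fold lower (adjusted p = 0.0069), and not called with Molib replicate 1 (adjusted p then 0.0528) left out. HSP90B1 was 1.31-fold lower (adjusted p = 0.044), and not called with Molib replicate 1 (adjusted p then 0.15), Molib replicate 2 (0.14) or I-BET151 replicate 1 (0.089) left out. DDIT3, CHAC1, HSPA5 and HERPUD1 were not called (log2 fold change between -0.49 and 0.48, adjusted p between 0.082 and 0.67). DDIT3 was lower without I-BET151 replicate 1 (adjusted p = 0.037) and HERPUD1 without Molib replicate 1 (0.038).

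**Figure D4:**
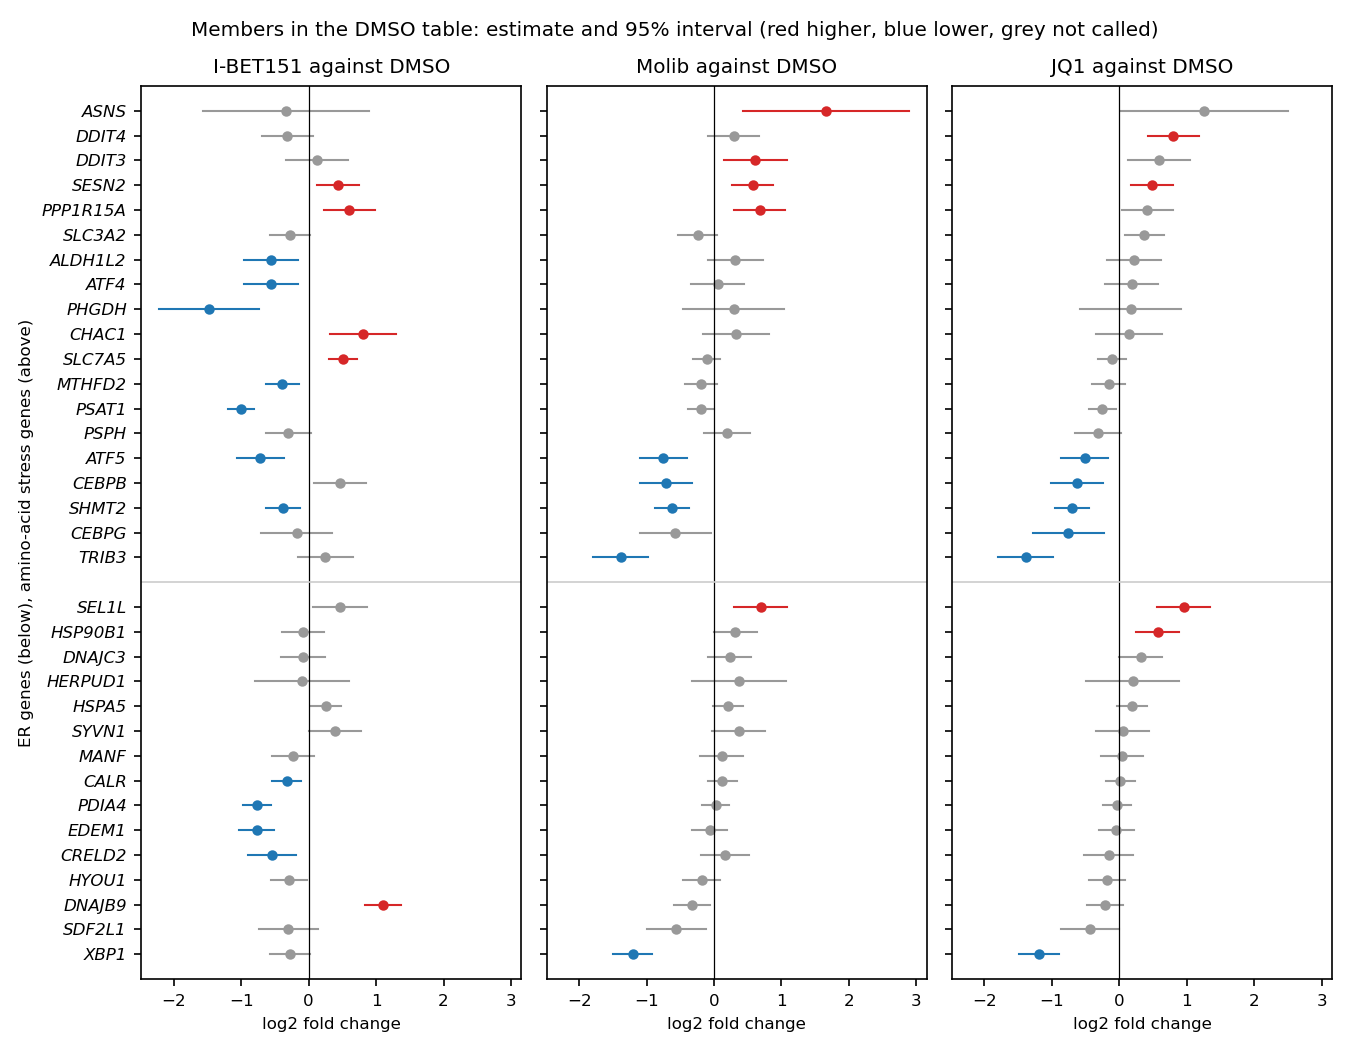
Log2 fold change (x axis, same scale in each panel) against DMSO with its 95% interval for the 34 members tested in the DMSO table, for I-BET151, Molib and JQ1. Red points were called higher, blue lower and grey not called; amino-acid stress genes stand above the grey rule and ER genes below it. TRIB3 lies at 0.24, -1.39 and -1.39 in the 3 panels, and XBP1 at -0.28, -1.21 and -1.19.

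In the CTRL table the members could be read only roughly. In JQ1 against CTRL limma called 0 of 13261 genes (0% as the background) and 0 of 33 members, with 2048 genes and 7 members at an unadjusted p under 0.05. The 2 CTRL libraries had 6 and 1 members listed at 0, and the 2 JQ1 libraries 2 and 7. XBP1 was at 20.1 and 25.7 FPKM in JQ1, against 132 and 82.6 in CTRL, without overlap (log2 fold change -2.15, 95% interval -2.96 to -1.34, limma adjusted p = 0.087), and was called lower only without CTRL replicate 2 (adjusted p = 0.044). SHMT2 was at 10.0 and 14.8 in JQ1, against 80.6 and 48.5 in CTRL (log2 fold change -2.27, adjusted p = 0.097), and CEBPB at 16.1 and 21.5 in JQ1, against 52.1 and 60.2 in CTRL (adjusted p = 0.10). TRIB3 was at 3.46 FPKM in 1 JQ1 library and listed at 0 in the other, against 6.89 and 9.66 in CTRL. DDIT3 was listed at 0 in 1 library of each group. ATF4 was at 134 and 88.1 in JQ1 and 119.8 and 295 in CTRL, HSPA5 at 128 and 181 in JQ1 and 257 and 208 in CTRL, and HERPUD1 at 29.6 and 27.7 in JQ1 and 83.9 and 13.4 in CTRL. CHAC1 was at 5.91 and 10.8 in JQ1, while in CTRL it was listed at 0 in 1 library and at 4.19 in the other. Of the 32 members tested with JQ1 in both tables, 9 lay on the same side without overlap in both, XBP1, TRIB3, SHMT2 and CEBPB among them, and 3 on opposite sides. That is 28.1% and 9.38% of the members, against 20.4% and 6.79% of the 12574 genes tested in both tables.

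METTL3 was at 212 and 234 FPKM in MW_JQ1, 11.8 and 0 in JQ1 and 31.2 and 1.18 in CTRL. It was not called between MW_JQ1 and JQ1 (limma adjusted p = 0.099). In MW_JQ1, 8 members were higher than in JQ1 and none lower, when 15.2% of all genes were called, 13.5% higher and 1.62% lower. Of all calls 89.3% were higher, and the median log2 fold change over all genes was 0.75 as deposited, 0.48 with TMM factors and 0.15 with median scaling, so member changes have to be read against that shift. The amino-acid stress genes had a median of 1.92 (1.65 with TMM factors and 1.35 with median scaling) and the ER genes one of 0.59 (0.25 and -0.17). SLC7A5 was at 271 and 297 in MW_JQ1, against 85.9 and 59.5 in JQ1 (3.91-fold higher, log2 fold change 1.97, 95% interval 1.08 to 2.87, limma adjusted p = 0.021). PSAT1 was at 125 and 123 in MW_JQ1, against 28.5 and 45.6 in JQ1 (3.34-fold higher, adjusted p = 0.016), SHMT2 at 60.3 and 68.9 in MW_JQ1, against 10.0 and 14.8 in JQ1 (5.21-fold higher, adjusted p = 0.015), and HSPA5 at 362 and 342 in MW_JQ1, against 128 and 181 in JQ1 (2.28-fold higher, adjusted p = 0.031). In these genes, picked by their calls, both MW_JQ1 libraries lay above both JQ1 libraries. PHGDH was at 27.2 and 19.7 in MW_JQ1 and NUPR1 at 2.30 and 2.55, and both were listed at 0 in both JQ1 libraries, so no fold is given. NUPR1, counted among the 8, passed the filter of 1 FPKM only through the 2 MW_JQ1 libraries, so its call adds no support. CEBPB and HYOU1 were called as well (adjusted p = 0.040 and 0.0452). Without MW_JQ1 replicate 1 no member was called, and none without MW_JQ1 replicate 2, with NUPR1 then not tested, and the 8 calls came to 5 with a filter at 5 FPKM and 4 with median scaling. With median scaling the log2 fold change of HSPA5 came to 0.44 (adjusted p = 0.59, and 0.12 with TMM factors), and PSAT1 and SHMT2 were not called either (adjusted p = 0.25 and 0.15). CEBPB and HYOU1 were not called with TMM factors, median scaling or a filter at 5 FPKM (adjusted p between 0.069 and 0.60). Left out singly, JQ1 replicate 1 ended the calls of HSPA5, CEBPB, HYOU1 and PHGDH, and JQ1 replicate 2 those of SLC7A5, HYOU1 and PHGDH. ATF4, DDIT3, CHAC1, TRIB3, XBP1 and HERPUD1 were not called (adjusted p between 0.062 and 0.64), but TRIB3 was higher without JQ1 replicate 1 (log2 fold change 3.97, adjusted p = 0.017) and XBP1 with its 2 groups fitted alone (1.28, adjusted p = 0.031). The libraries also differed in quality, with 0.543% and 0.649% of tested genes listed at 0 in MW_JQ1, against 15.5% and 28.6% in JQ1, and RN7SL1 at 23.8 and 57.6 FPKM in MW_JQ1, against 50061 and 42965 in JQ1, so quality and group cannot be told apart.

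**Figure D5:**
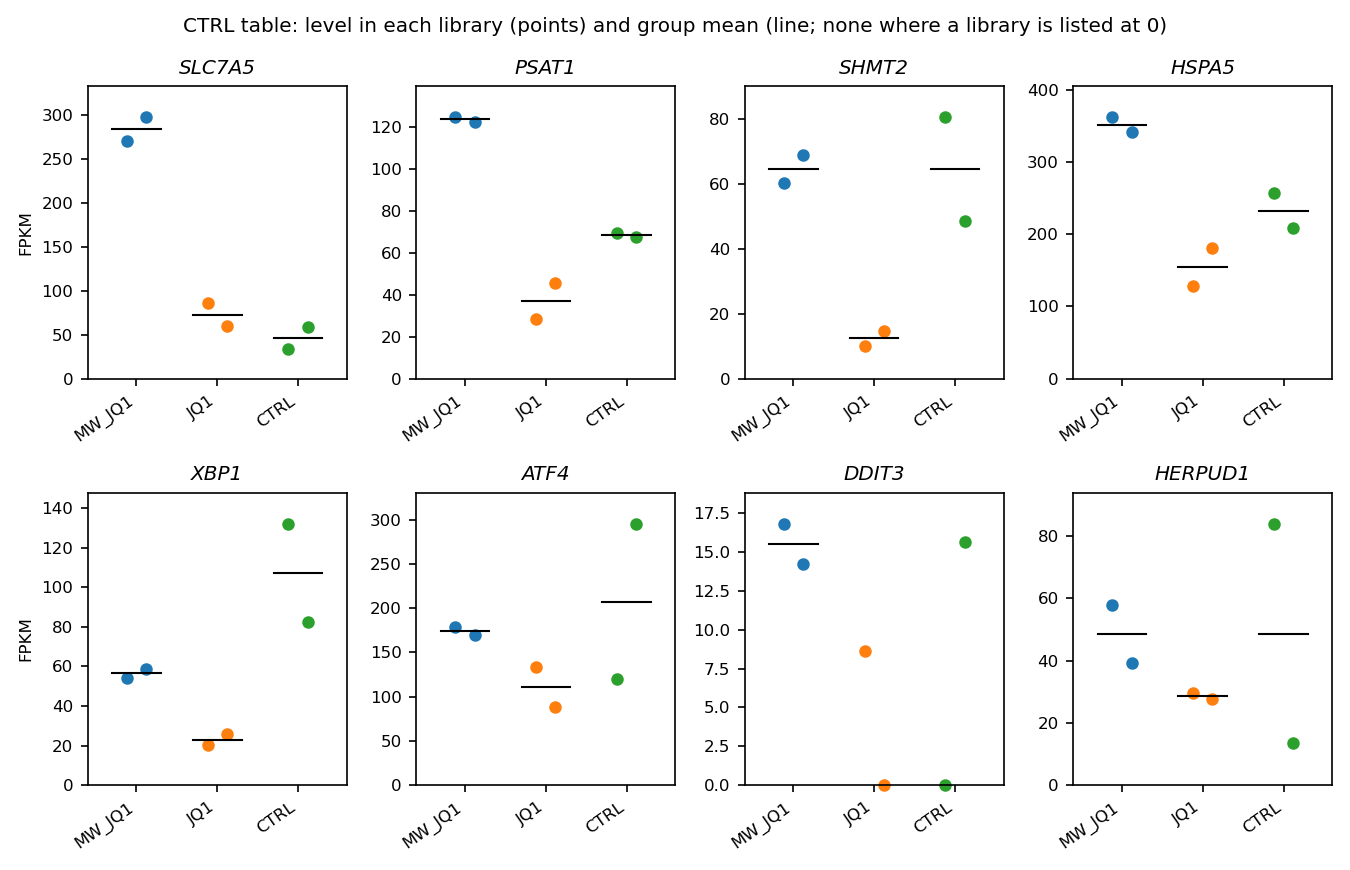
FPKM (y axis, from 0) of 8 members in the CTRL table, with MW_JQ1, JQ1 and CTRL from left to right; points are the 2 libraries of a group and the line is their mean, drawn only where no library is listed at 0. Both MW_JQ1 libraries of SLC7A5, PSAT1, SHMT2 and HSPA5 stand above both JQ1 libraries, while the CTRL pair of ATF4 stands at 119.8 and 295 and that of HERPUD1 at 83.9 and 13.4.

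The members called in the fewest comparisons were SYVN1, the ubiquitin ligase of the SEL1L complex, called in 0 of the 14 comparisons, and CEBPG, PSPH, MTHFD2, SDF2L1 and HERPUD1, called in 1 each.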

How the data were processed

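RNA-seq of MDA-MB-231 cells was analysed from 3 tables that the authors deposited, with 22 libraries in 11 groups of 2. The submitters name CASAVA 1.4, Cufflinks 2.2.1 and HISAT2 2.1.0 with the hg38 build, per the submitters' processing notes. Roles and settings of these tools were not given in the sources used. The values used are FPKM per gene, deposited by the authors. In 2 of the 3 tables that unit was inferred from the values. The authors also deposited a mean signal, log2 fold changes, their errors and p-values in 1 table, and these columns were not used. FPKM values keep no read totals, so depth is unknown and the number of libraries limits the precision. Groups came from the sample labels. The JQ1 columns of the DMSO table were assigned to that group by elimination, so which library is which is not known. The number of columns of samples outside the study was 0.

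Each table was tested alone, since the tables may have been normalized separately. A gene had to reach 1 FPKM in at least 2 libraries of its table. The values log2(FPKM + 1) were fitted over all groups of the table by limma 3.58.1 in R 4.3.3, with contrasts and a trended empirical Bayes variance, and p-values were adjusted by Benjamini-Hochberg over all genes of a comparison, with 0.05 as the threshold. A count model had been planned for count data and does not suit FPKM. The script was tested on simulated data. Tables and figures were made with Python 3.11.15, pandas 2.3.3, numpy 2.4.6 and matplotlib 3.10.9. TMM factors and median scaling were computed on the FPKM values. Further alternatives were pseudocounts of 0.1 and 5, a filter at 5 FPKM and no filter, groups fitted alone, the replicate number as a block and leaving out each library. Leaving the I-BET151 libraries out of the fit was chosen after seeing the data.

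The members and the lists of other pathway genes were chosen with earlier results of these data known. In each comparison CHAC1, DDIT3, ATF4, ASNS, TRIB3, HSPA5, XBP1 and HERPUD1 are given whether called or not, then up to 6 further called members of each branch with the largest change, and up to 3 genes of each other list with the lowest adjusted p. ERN1, ATF6, SLC38A2, DDIT4 in shM3_CD, EDEM1 in shM3, CRELD2 and MANF in shM3_WT against shM3, and PPP1R15A in shM3_WT against B5 were named after their values were seen. Promoter windows are those of RefSeq on GRCh38.p14, matched by gene symbol. The HSP90B1 stretch is not printed.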

Additional observations from a re-analysis of the deposited data

Results flagged for a closer look

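JQ1 was set against its own control in 2 tables, and 3 members lay on opposite sides of it, with no overlap of the libraries in either table, which is 9.38% of the 32 members tested in both, against 6.79% of all 12574 genes. A further 9 members lay on the same side in both, 28.1% against 20.4% of all genes. The difference between the tables was not tested. SLC7A5, the leucine importer, had a log2 fold change of 0.66 in JQ1 against CTRL and -0.11 in JQ1 against DMSO. HSPA5, the BiP chaperone, had one of -0.60 against CTRL and 0.19 against DMSO. HSP90B1, the ER form of HSP90, had one of -0.25 against CTRL and 0.57 against DMSO. None of the 3 was called in JQ1 against CTRL by limma, where 0 of 33 members were called, and of the 3 only HSP90B1 was called in JQ1 against DMSO. That call was lost when any 1 of the 4 libraries was left out. HSPA5 was called higher there only with the I-BET151 libraries left out of the fit (limma adjusted p = 0.030). Between 15.5% and 28.6% of tested genes were listed at 0 in the JQ1 and CTRL libraries of that table, and the part of library quality in the difference was not tested.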

How the results depend on the processing

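Of the 172 member calls, 95 were kept under every alternative that tested the gene. NUPR1 in MW_JQ1 against JQ1 counts among the 95 although several alternatives did not test it. These were the fits without either MW_JQ1 library and the filter at 5 FPKM. Of 230 gene results named, 73 were not called, and 55 of these stayed so throughout. Over all alternatives of the named genes 2450 results kept their side of the threshold, 265 lost the call and 22 gained it. A further 1 reversed direction and was called in at least 1 of the fits compared. Results not called in either fit are among the 2450 whatever their direction. The reversal was ASNS in shM3_WT against shM3_CD, with a log2 fold change of -0.38 over all libraries, 0.54 without shM3_WT replicate 2 and -1.30 without shM3_WT replicate 1. With 1 library left out, the number of members called ranged from 7 to 8 in shM3_CD against shM3 (13 with all libraries), 7 to 12 in shM3_WT against B5 (14), 4 to 7 in JQ1 against DMSO (10, and up to 15 under the other settings), 4 to 6 in Molib against DMSO (10, and up to 15), 5 to 17 in I-BET151 against DMSO (16), 0 to 1 in JQ1 against CTRL (0) and 0 to 6 in MW_JQ1 against JQ1 (8, and up to 12). The lone library of a group is then assumed to vary like the others. The share of all called genes kept or lost in the same way is not given, so these counts are no trait of the members. I-BET151 against DMSO gave 8 calls with no filter and 8 with its groups fitted alone. MW_JQ1 against JQ1 gave 5 calls with a filter at 5 FPKM and 4 with median scaling. With the replicate number as a block, I-BET151 against DMSO gave 8 calls and MW_JQ1 against JQ1 gave 4. In the latter SLC7A5 (adjusted p = 0.051) and HSPA5 (0.075) were not called. The block fit of the DMSO table also left out its 2 JQ1 libraries, so its 8 calls do not show the block alone. Same-numbered libraries deviated together with correlations of only -0.12 to 0.04 over pairs of groups. Such values cannot tell whether they were grown or prepared together. No paired analysis was possible for JQ1 in the DMSO table because its columns carry no number. ASNS was called lower in shM3_CD against shM3 and against B5 with those groups fitted alone (adjusted p = 0.0498 and 0.025), and TRIB3 in shM3_CD against B5 with a filter at 5 FPKM (0.049). The cause of these changes was not tested. The 2 libraries per group and the unknown depth limit what can be called.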
